A study of Arabidopsis thaliana with 24 samples.

Results

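The genes described here encode the superoxide dismutases and catalases of Arabidopsis thaliana, the 10 genes FSD1 (AT4G25100), FSD2 (AT5G51100), FSD3 (AT5G23310), CSD1 (AT1G08830), CSD2 (AT2G28190), CSD3 (AT5G18100), MSD1 (AT3G10920), CAT1 (AT1G20630), CAT2 (AT4G35090) and CAT3 (AT1G20620). They were taken by gene identifier, and all 10 had values, out of 17952 genes with values and 37336 genes listed. Their transcripts were followed by RNA sequencing in 24 libraries that formed 8 groups of 3 samples. Genotype, temperature and time set were crossed, with 2 levels of each. Seedlings were either of the wild type Col-0 (WT) or of sig5-3, the T-DNA insertion line SALK_141383C of SIG5, which encodes a chloroplast sigma factor, so the mutant is represented by a single line. All seedlings, the controls included, had grown for 11 days at 19 °C in a 12 h photoperiod and had then spent 24 h in continuous light, and each sample pooled 10 seedlings. Zeitgeber time (ZT) counts hours from dawn. In the ZT27 set, chilling at 4 °C began at ZT27, in the subjective day, and lasted 5 h. In the ZT45 set it began at ZT45, in the subjective night, and lasted 3 h. Each set had controls kept at 19 °C. Start and length of chilling differ together between the sets, and their effects cannot be told apart. The 19 °C controls were not chilled but differ in ZT between the sets. Any difference in time in continuous light or in age that goes with ZT cannot be told apart from it. Below, "at ZT27" and "at ZT45" name the set by the start of its chilling, not the hour of sampling.

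Superoxide is formed where electrons leak to oxygen, above all in chloroplasts and mitochondria. Superoxide dismutases convert it to oxygen and hydrogen peroxide, and they are classed by their metal into iron (FSD), copper/zinc (CSD) and manganese (MSD) enzymes, each placed in particular compartments. Catalases, which sit in peroxisomes, split hydrogen peroxide into water and oxygen, and in leaves they take up most of the hydrogen peroxide that photorespiration makes there. CAT2 and CAT3 are known from earlier work on Arabidopsis as clock-controlled genes with opposite phases, CAT2 in the morning and CAT3 in the evening.

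Values are normalised read abundances, and no source used here gives their scaling. Most low values of a library were whole multiples of a step shared by its genes. The values are therefore taken as scaled per library but not by gene length. Levels are compared between genes only per kilobase of the longest annotated transcript, which rests on that reading. The 10 genes were well covered, with between an estimated 261 reads in a library (CSD3) and 84262 reads (CAT2). Fold changes are differences of log2(value + 0.5), with the standard error (SE), from a limma fit over all 24 libraries. A gene is said to pass where its p-value, adjusted by Benjamini-Hochberg over all 17952 genes, was under 0.05. The submitters' own rule also asked for a log2 fold change over 1.5 in size, and a gene past both limits is said to be called. Groups did not overlap where all libraries of a group lay above all those of the other. With chilling this held for 67.3% of all genes at ZT27 in WT and 57.6% in sig5-3, and for 51.7% and 51.2% at ZT45. Among the 10 genes it held for 9 and 8, and for 7 and 5. Between the 19 °C sets it held for 54.6% of all genes in WT and 56.8% in sig5-3, and for 9 of the 10 in each. The targeted gene SIG5 had a lower mean in sig5-3 than in WT in each condition, from 1.302 against 9.146 (19 °C, ZT27) to 31.95 against 141.6 (4 °C, ZT45). Reads of SIG5 thus remained in sig5-3. On the log2 scale they rose with chilling by 3.54 at ZT27 and 1.69 at ZT45 in sig5-3, beside 3.29 and 1.61 in WT. Replicate 1 of the chilled sig5-3 ZT27 group stood apart from its group (root mean square deviation of its log2 values 0.2629, where the other 23 libraries had 0.0819 to 0.170), and results that turn on it are given with and without it. Of the leaf markers RBCS1A, RBCS3B, CA1 and LHCB3 all 4 had values, and their sum moved with the groups, from 23900 to 29940 per library in WT at 19 °C in the ZT27 set to 36100 to 42760 in the chilled sig5-3 ZT27 group. In such bulk samples, fewer cells of a type and less RNA per cell cannot be told apart.

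CAT2 and CAT3 had the widest ranges of group means among the 10 genes, and they moved in opposite directions. At 19 °C, CAT2, the main leaf catalase, was 5.39-fold higher in the ZT45 set than in the ZT27 set in WT, while CAT3 was lower, at 0.284 times its ZT27 level. Chilling begun at ZT27 raised CAT2 2.36-fold and lowered CAT3 to 0.473 times its control. With chilling begun at ZT45 neither passed over all 24 libraries as deposited, though CAT3 passed downward under some other settings. These comparisons share the 19 °C libraries of the ZT27 set or of the ZT45 set, so they are not independent of each other.

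In WT at ZT27, CAT2 was at 349.9, 359.4 and 367.3 in the 3 libraries at 19 °C and at 878.5, 867.7 and 799.1 in the 3 at 4 °C. At ZT45 the WT libraries gave CAT2 values of 1966, 1881 and 1960 at 19 °C and of 2083, 2030 and 1928 at 4 °C. Every chilled ZT27 library lay above every 19 °C ZT27 library and below every ZT45 library, and at ZT45 the temperatures overlapped. The sig5-3 libraries gave 363.2, 315.7 and 373.6 (19 °C, ZT27), 1033, 942.9 and 897.0 (4 °C, ZT27), 2059, 2099 and 2085 (19 °C, ZT45), and 2084, 2214 and 2213 (4 °C, ZT45). The mutant libraries fell in the same order, and the ZT45 temperatures overlapped there too. For CAT2, chilling at ZT27 gave a log2 fold change of 1.24 (SE 0.06, adjusted p = 4.1e-14) in WT and 1.45 (SE 0.06, adjusted p = 1.8e-15) in sig5-3. Chilling at ZT45 gave 0.06 in both genotypes, with 95% intervals of -0.08 to 0.19 in WT and -0.07 to 0.19 in sig5-3 (adjusted p = 0.54 and 0.514). Between the 19 °C controls, CAT2 rose from the ZT27 to the ZT45 set by 2.43 (SE 0.06, adjusted p = 2.1e-19) in WT and 2.57 (SE 0.06, adjusted p = 8.8e-20) in sig5-3.

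CAT3, the evening-phased catalase, was at 1623, 1521 and 1216 in WT at 19 °C in the ZT27 set and at 686.3, 689.6 and 670.8 after chilling. In the ZT45 set its WT values were 419.4, 425.7 and 383.6 at 19 °C and 391.8, 360.8 and 332.7 at 4 °C. The levels of CAT3 thus ran in the reverse order to those of CAT2, with the chilled ZT27 libraries again between the 19 °C ZT27 libraries and all ZT45 libraries. In sig5-3 the values were 1330, 1485 and 1415 (19 °C, ZT27), 880.5, 612.2 and 668.6 (4 °C, ZT27), 462.8, 406.3 and 475.3 (19 °C, ZT45), and 362.6, 379.7 and 369.1 (4 °C, ZT45). The highest of the 3 chilled ZT27 values in the mutant, 880.5, came from the library that stood apart, and it too lay below every 19 °C library of that set. CAT3 fell by 1.08 on the log2 scale with chilling at ZT27 in WT (SE 0.11, adjusted p = 7.0e-09) and by 0.98 in sig5-3 (SE 0.11, adjusted p = 2.9e-08), the latter by 1.14 without the library that stood apart. At ZT45 the chilling difference was -0.18 in WT (95% interval -0.4 to 0.04, adjusted p = 0.199) and -0.27 in sig5-3 (-0.49 to -0.05, adjusted p = 0.0507). The WT difference of CAT3 passed with equal library totals (-0.23, adjusted p = 0.0361) and with only the groups compared (-0.18, adjusted p = 0.03), and the sig5-3 difference passed under the same settings (-0.24, adjusted p = 0.0251, and -0.27, adjusted p = 0.00216). The sig5-3 difference of -0.27 also passed without the library that stood apart (adjusted p = 0.00898) and without replicate 1 (0.0428) or replicate 3 (0.0288) of the WT 19 °C ZT27 group, replicate 2 of the chilled sig5-3 ZT27 group (0.0312) or replicate 2 of the sig5-3 19 °C ZT45 group (-0.34, adjusted p = 0.0308). Between the 19 °C controls, CAT3 fell from the ZT27 to the ZT45 set by 1.82 in WT (SE 0.11, adjusted p = 9.0e-13) and by 1.65 in sig5-3 (SE 0.11, adjusted p = 4.7e-12).

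CAT1, which lies next to CAT3 on chromosome 1 with 95 bases between the annotated genes, was the lowest of the catalases. Its WT values were 74.85, 73.14 and 68.16 at 19 °C and 60.18, 59.83 and 60.66 at 4 °C in the ZT27 set, and 31.41, 29.93 and 31.93 at 19 °C and 35.98, 40.77 and 32.03 at 4 °C in the ZT45 set. All ZT27 libraries lay above all ZT45 libraries, and within each set the WT temperatures did not overlap. In sig5-3 at ZT27 CAT1 was at 65.2, 75.51 and 75.61 at 19 °C and at 68.97, 50.8 and 51.75 at 4 °C, which overlapped through the library that stood apart. CAT1 fell with chilling at ZT27 by 0.26 in WT (SE 0.09, adjusted p = 0.0187) and by 0.34 in sig5-3 (SE 0.09, adjusted p = 0.00216). Without the library that stood apart the sig5-3 difference was -0.48 (adjusted p = 1.6e-06). The WT change missed the threshold without replicate 1 (-0.23, adjusted p = 0.0663) or replicate 2 (-0.24, adjusted p = 0.0518) of the WT 19 °C ZT27 group, and the sig5-3 change missed it when only the groups compared were fitted (adjusted p = 0.0571). At ZT45 the difference was 0.21 in WT (adjusted p = 0.0701) and 0.09 in sig5-3 (adjusted p = 0.461). The WT value passed with only the groups compared (adjusted p = 0.0391), without the library that stood apart (adjusted p = 0.00931) or without replicate 3 of the chilled WT ZT45 group (0.3, adjusted p = 0.0206). Between the 19 °C controls CAT1 fell by 1.2 in WT and 1.09 in sig5-3 from the ZT27 to the ZT45 set (adjusted p = 6.6e-11 and 3.4e-10).

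**Figure D1:**
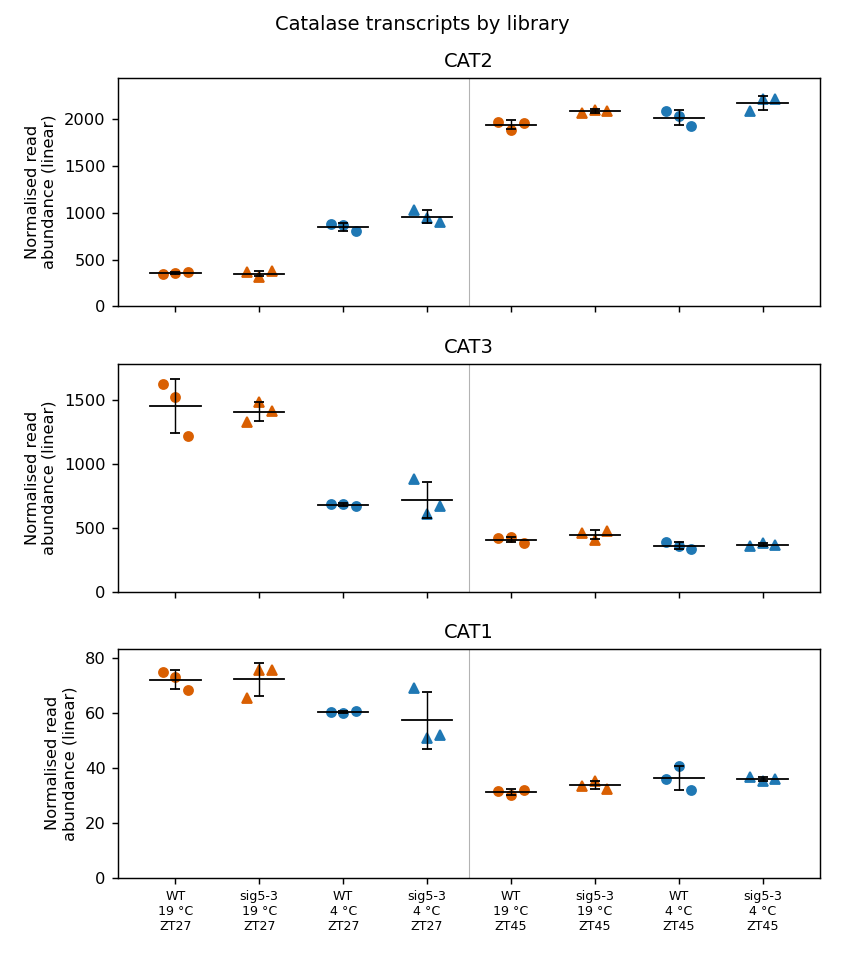
Normalised read abundance (linear axis from 0, arbitrary units) of CAT2, CAT3 and CAT1 in each of the 24 libraries, by group. Orange marks 19 °C and blue 4 °C, circles WT and triangles sig5-3, and bars give the mean ± SD (n = 3). CAT2 climbs from 349.9 to 367.3 in the WT 19 °C ZT27 libraries to at least 1881 in every ZT45 library, and CAT3 runs the other way.

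Per kilobase, the makeup of the catalase transcripts turned over. CAT3 made up 74.5% ± 3.1 (SD, n = 3) of the summed catalase abundance per kilobase in WT at 19 °C in the ZT27 set, and CAT2 20.7% ± 2.8. After chilling in that set CAT2 held 55.3% ± 0.98 and CAT3 40.1% ± 0.8. In the ZT45 set CAT2 held 82.7% ± 0.93 at 19 °C and 84.6% ± 0.53 at 4 °C. The ratio of CAT2 to CAT3 per kilobase had a median over WT libraries of 0.262 and 1.4 in the ZT27 set (19 °C and 4 °C) and of 5.21 and 6.25 in the ZT45 set, and the ranges of these 4 groups did not overlap. In sig5-3 the medians were 0.293, 1.49, 4.94 and 6.48 in the same order. The summed catalase abundance per kilobase ranged over the group means from 590 ± 19.8 in the chilled WT ZT27 group to 980 ± 31.1 in the chilled sig5-3 ZT45 group. In WT it was 674 ± 71.9 at 19 °C in the ZT27 set, a range of 593 to 731 that overlapped that of the chilled libraries (568 to 603), and 901 ± 15.6 and 917 ± 41.6 in the ZT45 set. CAT1 held at most 5.16% in any library.

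**Figure D2:**
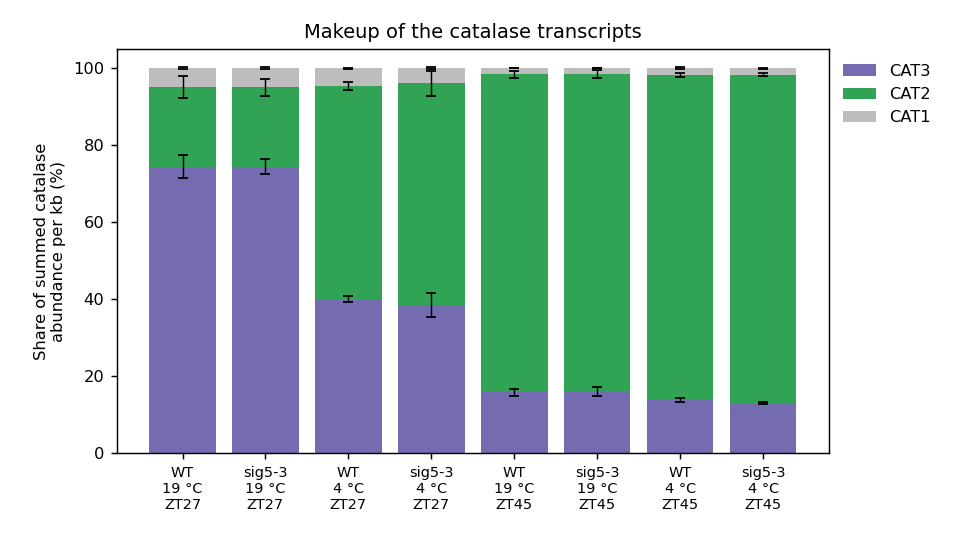
Share (%) of CAT3, CAT2 and CAT1 in the summed catalase abundance per kilobase in each group, as stacked bars of means with SD (n = 3). The CAT3 share drops from 74.5% in the WT 19 °C ZT27 group to 40.1% with chilling and to 15.8% in the WT 19 °C ZT45 group.

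The chilling response of all 3 catalases differed between the time sets, tested as the ZT45 response minus the ZT27 response. The difference for CAT2 was -1.18 (SE 0.09, adjusted p = 4.8e-10) in WT and -1.39 (SE 0.09, adjusted p = 2.3e-11) in sig5-3. For CAT3 it was 0.90 (SE 0.15, adjusted p = 7.1e-05) and 0.71 (SE 0.15, adjusted p = 7.9e-04), and for CAT1 0.47 (adjusted p = 0.00762) and 0.44 (adjusted p = 0.0114). Across all 17952 genes 26.3% passed this comparison in WT and 29.3% in sig5-3, and of the 10 genes 6 passed in each genotype, 4 upward and 2 downward in WT and 3 each way in sig5-3. With equal library totals 5 passed upward and 1 downward in sig5-3, where 42.2% of all genes passed upward and 7.46% downward, against 13.7% and 15.5% as deposited. In WT the all-gene shares for this comparison were 13.7% upward and 12.6% downward as deposited, 22.1% and 9.03% with equal library totals and 10.3% and 15.6% with TMM scaling. With equal library totals CSD3 (0.36, adjusted p = 0.038) and MSD1 (0.17, adjusted p = 0.0453) passed upward in WT in addition. As deposited they were at 0.26 (adjusted p = 0.142) and 0.07 (adjusted p = 0.581).

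The stretches before CAT2 and CAT3 are shown because the 2 genes ran in opposite directions. They are the 250 bases before each annotated start, from RefSeq's TAIR10.1 assembly, 5′ to 3′ on the strand of the gene, with CAT3 at chr1:7142722-7142971 (+) and CAT2 at chr4:16703505-16703754 (-), and motif matches are in capitals.
CAT3: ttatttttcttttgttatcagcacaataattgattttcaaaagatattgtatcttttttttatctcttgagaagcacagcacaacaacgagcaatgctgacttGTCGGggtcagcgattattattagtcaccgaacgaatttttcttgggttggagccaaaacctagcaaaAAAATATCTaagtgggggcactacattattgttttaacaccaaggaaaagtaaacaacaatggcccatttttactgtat
CAT2: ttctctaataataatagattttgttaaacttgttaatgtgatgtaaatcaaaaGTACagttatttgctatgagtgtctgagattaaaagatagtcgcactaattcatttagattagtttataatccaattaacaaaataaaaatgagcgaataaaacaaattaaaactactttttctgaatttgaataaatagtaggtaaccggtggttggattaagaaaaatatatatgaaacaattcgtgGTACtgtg
The window from 250 bases before to 50 bases after the start was searched on both strands for 5 motifs. These were the evening element AAAATATCT, found in many evening-phased genes, the CCA1-binding site AAAAATCT, the G-box CACGTG, the core GTAC of the site of the copper-responsive factor SPL7, and the core CCGAC of the cold-responsive DRE/CRT element. The evening element was present in CAT3 at 79 bases before the start and in no other of the 10 genes, and 2.82% of 27443 promoters hold it. CAT3 also held CCGAC in reverse complement (GTCGG) 147 bases before the start, as 15% of promoters do on either strand, and a GTAC 28 bases into the transcript. CAT2 held GTAC at 197 and 8 bases before the start and none of the other motifs, and 39% of promoters hold GTAC. Of the 10 windows, 5 held GTAC (FSD1, CSD1, CSD3, CAT2 and CAT3) and 2 held CCGAC on either strand (FSD3 and CAT3). The CCA1-binding site (7.88% of promoters) and the G-box (7.68%) were in none of the 10 windows. A match describes letters in this window and was not tested for function.

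The genes whose 8 group means followed each catalase most closely, among 10809 genes with a mean of at least 10, are given as a description on the log2 scale. For CAT2 they were CGLD27 (r = 0.9993), SLP1 (r = 0.9991) and AT5G61670 (r = 0.9981), and for CAT3 AT5G12950 (r = 0.9971), SPPL2 (r = 0.9923) and AT3G07460 (r = 0.9903). CAT1 was followed by AT5G48900 (r = 0.9973), AT4G30660 (r = 0.9963) and AT4G17610 (r = 0.9949). SLP1, a chloroplast protein phosphatase gene, had log2 fold changes in WT of 1.09 with chilling at ZT27, 0.13 with chilling at ZT45 (adjusted p = 0.0874) and 2.01 between the 19 °C sets, beside 1.24, 0.06 and 2.43 for CAT2. AT5G12950 had -0.93, -0.33 and -1.74 in these comparisons, beside -1.08, -0.18 and -1.82 for CAT3, and unlike CAT3 it passed in the chilled ZT45 comparison (adjusted p = 0.00143).

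Among the superoxide dismutases, transcripts of FSD1, an iron enzyme of the chloroplast stroma that is also found in the cytosol, were by far the most abundant. Per kilobase they made up 74.9% ± 1.5 of the summed superoxide dismutase abundance in WT at 19 °C in the ZT27 set, and between 71.9% and 79.2% in single libraries of all groups. MSD1, the manganese enzyme of mitochondria, followed at 12.4% ± 0.63 in that group, and the other 5 genes lay between 1.47% (CSD3) and 4.59% (FSD3).

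FSD1 in WT was at 1127, 1059 and 1204 at 19 °C and at 1314, 1240 and 1228 at 4 °C in the ZT27 set, and at 1576, 1485 and 1412 at 19 °C and 1350, 1376 and 1280 at 4 °C in the ZT45 set. The chilled libraries lay above their controls in the ZT27 set and below them in the ZT45 set, without overlap. The chilling difference at ZT27 was 0.16 in WT (SE 0.08, adjusted p = 0.0934) and 0.28 in sig5-3 (SE 0.08, adjusted p = 0.00454). At ZT45 it was -0.16 in WT (adjusted p = 0.131) and -0.17 in sig5-3 (adjusted p = 0.0989). Replicate 1 of the chilled sig5-3 ZT27 group was the highest of that group for FSD1, at 1574 beside 1215 and 1197. Without it the sig5-3 ZT27 value was 0.15 (adjusted p = 0.04), and the other 3 differences passed unmoved in size, at adjusted p = 0.0141 for WT at ZT27, 0.022 for WT at ZT45 and 0.0131 for sig5-3 at ZT45. The WT difference at ZT27 also passed with TMM scaling (0.2, adjusted p = 0.0339) and median-ratio scaling (0.19, adjusted p = 0.0395), and the WT difference at ZT45 with equal library totals (-0.2, adjusted p = 0.008). With only the groups compared both ZT45 differences passed (adjusted p = 0.0136 in WT and 0.0189 in sig5-3). With library totals made equal the sig5-3 ZT27 difference was 0.01 (adjusted p = 0.829), and with only the groups compared it missed the threshold (adjusted p = 0.098). The ZT45 response minus the ZT27 response was -0.32 in WT (SE 0.11, adjusted p = 0.0398) and -0.45 in sig5-3 (SE 0.11, adjusted p = 0.00367). The WT difference of -0.32 missed the threshold when any 1 of 9 of its 12 libraries was left out (adjusted p between 0.0514 and 0.106), and the sig5-3 difference did so with equal library totals (-0.16, adjusted p = 0.108).

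FSD2 and FSD3, the iron enzymes bound to chloroplast nucleoids, where they accompany the plastid-encoded RNA polymerase that sigma factors direct, were lower after chilling in the ZT27 set. For FSD2 the WT values fell from 47.72, 44.24 and 47.2 at 19 °C to 34.08, 34.61 and 35.68 at 4 °C, and in sig5-3 from 49.77, 47.0 and 49.02 to 40.9, 41.08 and 39.8. The temperatures did not overlap in either genotype, and the chilled mutant libraries lay above the chilled WT libraries. FSD2 fell by 0.41 in WT (SE 0.05, adjusted p = 5.8e-07) and by 0.26 in sig5-3 (SE 0.05, adjusted p = 2.5e-04). In the ZT45 set its WT values were 57.8, 58.17 and 53.48 at 19 °C and 62.81, 63.09 and 62.23 at 4 °C, a rise of 0.15 (SE 0.05, adjusted p = 0.0315), while in sig5-3 the difference was -0.03 (adjusted p = 0.678). That rise of FSD2 missed the threshold with equal library totals (0.1, adjusted p = 0.163), with TMM scaling (0.12, adjusted p = 0.0745), and without replicate 3 of the WT 19 °C ZT45 group (0.11, adjusted p = 0.162) or any of the chilled WT ZT45 libraries (adjusted p = 0.0588 to 0.0743). The response of FSD2 differed between the time sets by 0.56 in WT (SE 0.08, adjusted p = 4.0e-06) and by 0.22 in sig5-3 (SE 0.08, adjusted p = 0.0289). The sig5-3 value missed the threshold with TMM scaling (adjusted p = 0.0645), with only the groups compared (0.0914) and when any 1 of 7 of its 12 libraries was left out (0.0523 to 0.085).

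FSD3 showed a smaller shift in the same set. Its WT values were 72.5, 65.92 and 66.23 at 19 °C and 54.19, 59.45 and 57.79 at 4 °C, which did not overlap, and FSD3 fell by 0.25 (SE 0.07, adjusted p = 0.00514). In sig5-3 the difference was -0.12 (95% interval -0.27 to 0.03, adjusted p = 0.165), and with equal library totals it was -0.38 and passed (adjusted p = 1.9e-04). At ZT45 it was 0.13 in WT (adjusted p = 0.197) and 0.06 in sig5-3 (adjusted p = 0.553), and the WT value was 0.21 (adjusted p = 0.0311) without replicate 2 of the WT 19 °C ZT45 group. The response differed between the time sets by 0.38 in WT (SE 0.1, adjusted p = 0.0081) and by 0.18 in sig5-3 (adjusted p = 0.2), the latter 0.47 with equal library totals, which passed (adjusted p = 0.00158).

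The copper/zinc enzymes did not move as a block. CSD1, the cytosolic enzyme, rose with chilling in both sets and both genotypes, CSD2, the chloroplast enzyme, rose in the ZT27 set, and CSD3, the peroxisomal enzyme, fell in both sets and both genotypes. CSD1 in WT went from 18.59, 20.56 and 17.91 to 27.04, 25.62 and 25.42 in the ZT27 set and from 23.22, 23.3 and 30.22 to 34.26, 37.59 and 34.43 in the ZT45 set. No chilled library of CSD1 overlapped its controls in these or in the sig5-3 comparisons. The log2 fold changes were 0.44 and 0.47 in WT (SE 0.1 each, ZT27 before ZT45, adjusted p = 4.1e-04 and 4.7e-04) and 0.53 and 0.37 in sig5-3 (adjusted p = 5.6e-05 and 0.0046). No difference between the sets in the response of CSD1 passed (0.03 in WT, 95% interval -0.26 to 0.31, and -0.16 in sig5-3, -0.45 to 0.12).

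CSD2 in WT went from 22.75, 22.49 and 19.74 to 32.0, 28.32 and 30.66 with chilling in the ZT27 set, and was at 41.77, 44.1 and 50.06 at 19 °C and 55.45, 51.09 and 52.72 at 4 °C in the ZT45 set. Every ZT45 library was above every ZT27 library, and the temperatures did not overlap in either set. CSD2 rose with chilling at ZT27 by 0.48 in WT (SE 0.09, adjusted p = 9.8e-05) and 0.60 in sig5-3 (SE 0.09, adjusted p = 4.6e-06). At ZT45 the difference was 0.23 in WT (95% interval 0.04 to 0.42, adjusted p = 0.0541) and 0.04 in sig5-3 (-0.15 to 0.23, adjusted p = 0.8). The WT value of 0.23 passed with only the groups compared (adjusted p = 0.0113), without the library that stood apart (adjusted p = 0.0162), without replicate 2 or 3 of the chilled sig5-3 ZT27 group (0.0497 and 0.0467), without replicate 3 of the WT 19 °C ZT27 group (0.0499) or of the sig5-3 19 °C ZT45 group (0.0467), and at 0.3 without replicate 3 of the WT 19 °C ZT45 group (0.0236). The response of CSD2 differed between the sets by -0.57 in sig5-3 (SE 0.13, adjusted p = 0.00161, and -0.28 with adjusted p = 0.0561 with equal library totals) and by -0.25 in WT (SE 0.13, adjusted p = 0.173).

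CSD3 had the lowest values of the 10 genes. In WT it went from 13.35, 12.24 and 11.1 to 7.452, 7.566 and 7.896 with chilling in the ZT27 set and from 12.81, 12.55 and 11.81 to 9.819, 8.024 and 10.51 in the ZT45 set, with no overlap in either. CSD3 fell by 0.64 and 0.38 in WT (SE 0.09 each, ZT27 before ZT45, adjusted p = 1.6e-06 and 0.00185) and by 0.46 in both sets in sig5-3 (adjusted p = 1.2e-04 and 2.6e-04). CSD3 overlaps 2 opposite-strand genes, AT5G02875 by 405 bases, which had no values, and NCBP (AT5G18110) by 142 bases. NCBP had values of 29 to 40.6 and a chilling change of 0.02 at ZT27 in WT (adjusted p = 0.822). The kit kept strand, but no source used here says whether the counting used it, and the share of reads of either gene in CSD3 was not tested. CSD1 overlaps AT1G08840 by 211 bases (values 7.49 to 13.8, and a chilling change of 0.33 at ZT27 in WT, adjusted p = 0.00151), and CAT2 overlaps AT4G35080 by 95 bases (values 25.3 to 34.2), with the same limit.

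MSD1 stayed between 147.9 and 199.2 in all libraries, and the direction of its chilling differences at ZT27 depended on the scaling. By limma on the values as deposited 0 of its 4 chilling differences passed and 1 had an unadjusted p under 0.05, and they ran from 0 (sig5-3, ZT45) to 0.12 (sig5-3, ZT27, 95% interval 0 to 0.23, adjusted p = 0.0728). The 0.12 passed without replicate 3 of the sig5-3 19 °C ZT27 group (0.16, adjusted p = 0.0256) or replicate 2 of the chilled sig5-3 ZT27 group (0.14, adjusted p = 0.048). It also passed upward with TMM scaling (0.16, adjusted p = 0.0172) and median-ratio scaling (0.14, adjusted p = 0.0263). With equal library totals the MSD1 differences at ZT27 passed downward, at -0.14 in WT (adjusted p = 0.00956) and -0.15 in sig5-3 (adjusted p = 0.00567), and that at ZT45 in sig5-3 was 0.03 (adjusted p = 0.68). The same scaling moved the median of all genes at ZT27 by -0.14 in WT and -0.25 in sig5-3. MSD1's ZT45 response minus its ZT27 response was -0.12 in sig5-3 (adjusted p = 0.277) and, with equal library totals, 0.17, which passed (adjusted p = 0.0258).

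**Figure D3:**
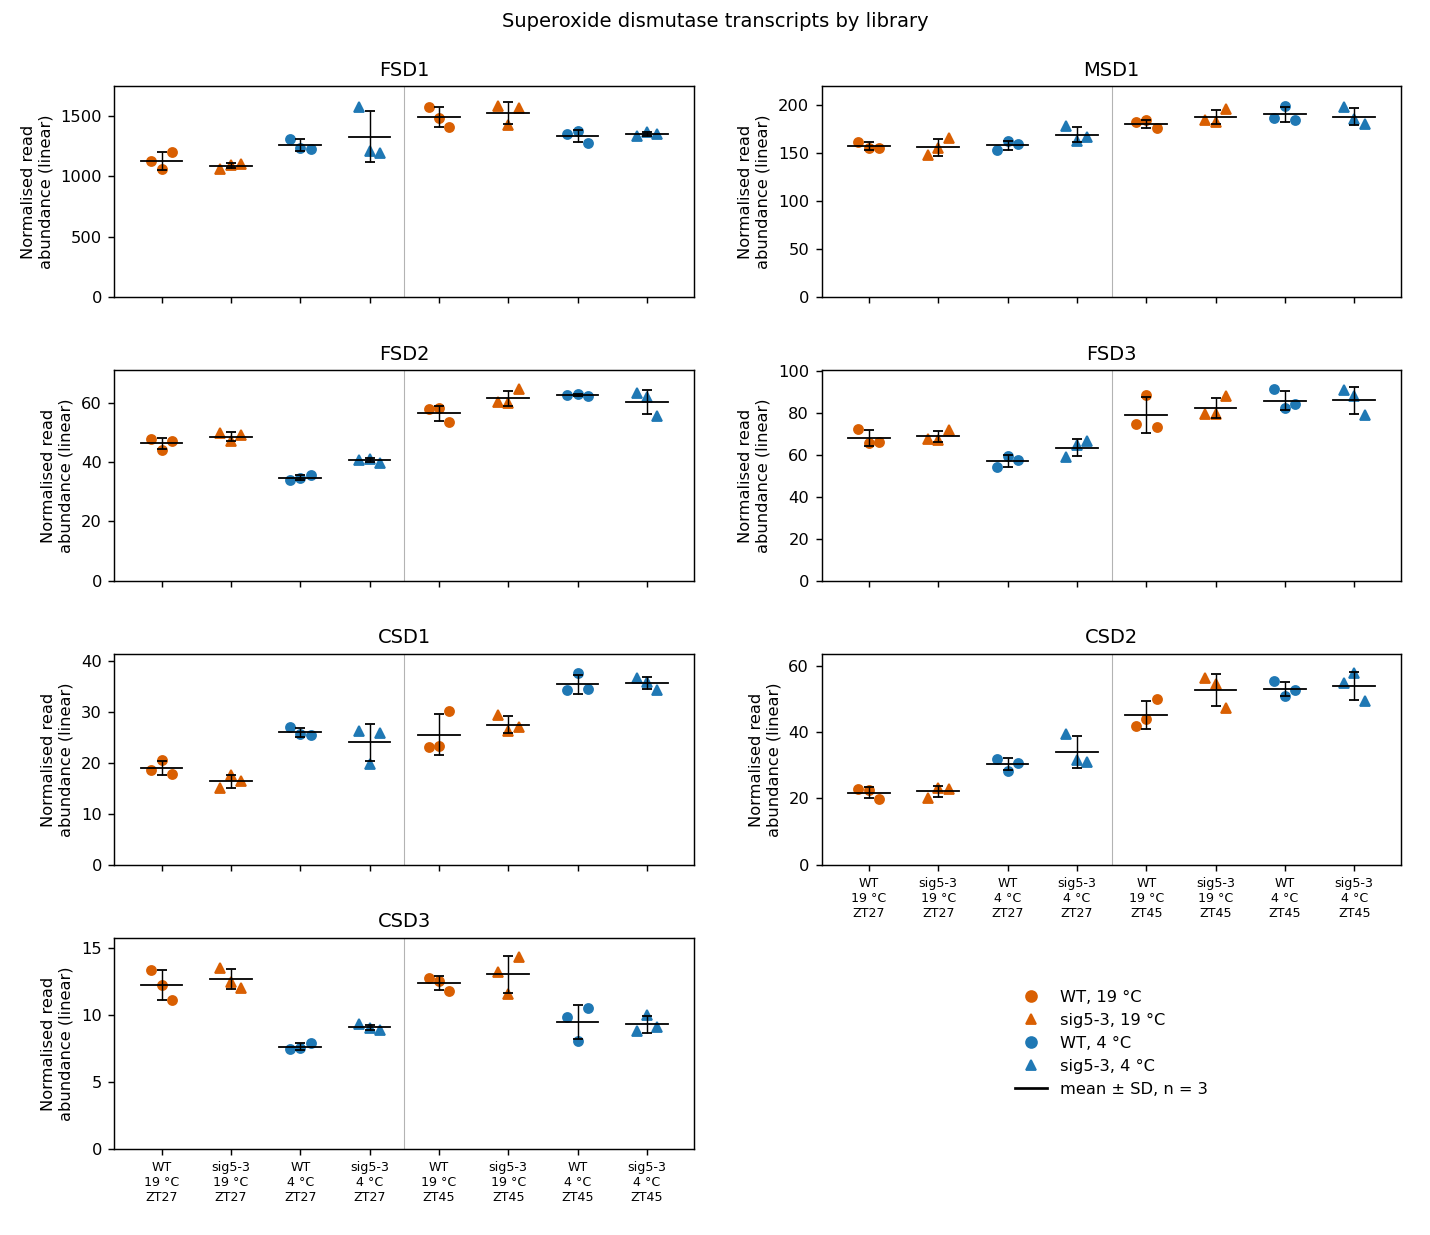
Normalised read abundance (linear axes from 0, arbitrary units, a scale per gene) of the 7 superoxide dismutase genes in each of the 24 libraries, by group, with the mean ± SD (n = 3). CSD1 is higher and CSD3 lower in chilled (blue) than in 19 °C (orange) libraries of both sets, and the sig5-3 4 °C ZT27 library at 1574 stands above its group for FSD1.

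CSD1 and CSD2 are known targets of the microRNA miR398, which also targets CCS, the copper chaperone of these enzymes, and COX5B-1, a subunit gene of mitochondrial cytochrome c oxidase. The mature miR398 sequences of RefSeq's TAIR10.1 annotation are shown with the seed (bases 2 to 8) in capitals. The stretch of each target transcript that matches best without gaps follows, with the bases that pair with miR398b-3p in capitals. They are shown because these are the targets of miR398 that the literature on Arabidopsis names among these genes and their partners.
miR398a-3p: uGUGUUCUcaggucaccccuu
miR398b-3p: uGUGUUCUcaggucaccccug
CSD1 site: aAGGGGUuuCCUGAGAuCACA
CSD2 site: ugcGGGUGACCUGgGAAacau
CCS site: auuGGGaGACCUGgGAACACu
COX5B-1 site: aAGGuGUGACCUGAGAAucac
The miRNAs lie at chr2:1041012-1041032 (+, MIR398a) and chr5:4691107-4691127 (+, MIR398b), and MIR398c encodes the same 3p sequence as MIR398b. The CSD1 site at chr1:2827177-2827685 (+) lies in the 5′ UTR across an intron and pairs at 17 of 21 bases, a score that 9 of 27440 genes reach (0.0328%). The CSD2 site at chr2:12015572-12015592 (+) lies in the coding sequence and pairs at 13 bases with 3 further G:U pairs, a score reached by 11.7% of genes. The CCS site at chr1:4267521-4267541 (-) and the COX5B-1 site at chr3:5299204-5299224 (+) pair at 15 bases with 1 G:U pair each, a score reached by 1.44% of genes. The score counts 1 for each mismatch and 0.5 for each G:U pair over the 21 bases, and a match is a description. The search allowed no gap or bulged base. Past a bulged base it counts mismatches where bases could pair, as at the 3′ ends of the CSD2 and COX5B-1 stretches. The shares of genes hold for this ungapped score only and do not measure how well a site is targeted. MIR398A, MIR398B and MIR398C had no values in the table, so the level of the miRNA was not analysed here. Of the other 2 targets, CCS fell with chilling at ZT27 in WT (-0.54, SE 0.11, adjusted p = 1.2e-04) and did not pass at ZT45 (-0.07, adjusted p = 0.651), and COX5B-1 passed in neither (0.12 and 0.11, adjusted p = 0.212 and 0.295).

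The genes that followed CSD2 most closely over the 8 group means were KAT5 (r = 0.9974), SFR2 (r = 0.9973) and ZFN1 (r = 0.9957), and those that followed CSD1 were CID7 (r = 0.9916), SPA4 (r = 0.9887) and EIL3 (r = 0.9871).

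Counted over the 10 genes, chilling at ZT27 in WT gave 3 that passed upward (CAT2, CSD1 and CSD2) and 5 downward (CAT1, CAT3, FSD2, FSD3 and CSD3), where 56.5% of all genes passed, 27.6% upward and 28.9% downward. In sig5-3, FSD1 passed upward in addition and FSD3 did not pass, so 4 passed upward and 4 downward, where 60% of all genes passed, 29.6% upward and 30.4% downward. The median log2 fold change of the 10 was -0.12 in WT and 0 in sig5-3, beside -0.01 over all genes in both. At ZT45, 3 of the 10 passed in WT (CSD1 and FSD2 upward, CSD3 downward), where 35.6% of all genes passed (20.2% upward, 15.5% downward), and 2 in sig5-3 (CSD1 upward, CSD3 downward), where 35.3% did (17.9% upward, 17.4% downward). Without the library that stood apart 6 and 4 passed at ZT45, and with only the groups compared 7 and 4. With equal library totals 3 passed upward and 6 downward at ZT27 in each genotype, where 18.9% of all genes passed upward and 42% downward in WT and 15.5% and 53.7% in sig5-3. At ZT45 with equal totals 1 passed upward and 3 downward in WT and 1 and 2 in sig5-3, where 15.6% and 17.7% of all genes did in WT and 19.1% and 14.4% in sig5-3. TMM scaling left 1 each way at ZT45 in WT. These counts are a description, beside the share of all genes. Of the 4 leaf markers 2 passed upward with chilling at ZT27 in WT and 4 in sig5-3, while at ZT45 1 passed downward in WT and 2 in sig5-3, and their part in the members' changes was not tested. None of the 10 was called in a chilling comparison, where 4.64% of all genes were called at ZT27 in WT and 5.01% in sig5-3, and 1.27% and 1.43% at ZT45.

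Between the time sets at 19 °C, 9 of the 10 genes passed in WT and the same number in sig5-3, where 41.4% and 42.5% of all genes did, 19.9% upward and 21.5% downward in WT and 22.1% and 20.4% in sig5-3. In both genotypes 7 genes were higher in the ZT45 set and CAT1 and CAT3 were lower, while CSD3 did not pass (0.02 in WT, 0.03 in sig5-3, and -0.08 and -0.11 with equal library totals). Among the superoxide dismutases CSD2 had the largest difference, 1.05 in WT (SE 0.09, adjusted p = 1.0e-09) and 1.23 in sig5-3 (SE 0.09, adjusted p = 4.7e-11). FSD1 was higher by 0.40 and 0.49 (adjusted p = 2.4e-04 and 2.0e-05), CSD1 by 0.41 and 0.73 (0.00142 and 1.1e-06), FSD2 by 0.28 and 0.34, FSD3 by 0.21 and 0.26, and MSD1 by 0.20 and 0.27. With equal library totals FSD3 did not pass in either genotype (0.1 in each, adjusted p = 0.32 and 0.286), nor did MSD1 in WT (0.09, adjusted p = 0.1), and in WT FSD3 also missed the threshold without replicate 2 (0.18, adjusted p = 0.0939) or 3 (0.18, 0.0889) of the 19 °C ZT27 group or replicate 2 of the 19 °C ZT45 group (0.12, 0.228). CAT2 and CAT3 were the 2 of the 10 that were called, in both genotypes, where 2.38% (WT) and 2.8% (sig5-3) of all genes were. With equal totals 14.4% of all genes passed upward and 33.1% downward in WT, and 14.2% and 37.1% in sig5-3. Of the root markers SCR, NRT2.1, WER, COBL9 and TIP2;3, 2 had values (SCR and NRT2.1), and their sum was 20.5 to 29.2 in the ZT27 libraries and 35.8 to 56.4 in the ZT45 libraries. Most of that sum was SCR, which was higher in the ZT45 set at 19 °C in WT (37.23 ± 2.15 against 25.73 ± 0.625, SD, n = 3, log2 difference 0.52, adjusted p = 1.2e-06). NRT2.1 was lower there (1.188 ± 0.401 against 2.379 ± 0.662, log2 difference -0.77, adjusted p = 0.0046), so the root markers did not move together, and sig5-3 had 1 higher and 1 lower as well. Of the 4 leaf markers 3 passed upward between the 19 °C sets in each genotype. WER, COBL9 and TIP2;3 had no values, and the part of the tissue makeup in the time-set differences was not tested.

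Between the chilled groups of the 2 sets, 9 genes passed in WT and 8 in sig5-3, where 52.4% and 51.4% of all genes did. CAT2 was higher in the chilled ZT45 than in the chilled ZT27 group by 1.25 in WT and 1.18 in sig5-3 and CAT3 lower by differences of -0.92 and -0.94. FSD1 did not pass in either (0.08 and 0.04), and in sig5-3 it was 0.17 (adjusted p = 0.0246) without the library that stood apart and 0.18 (adjusted p = 0.0127) with equal library totals. CSD3 passed in WT (0.28, adjusted p = 0.0112, and 0.21 with adjusted p = 0.0859 without replicate 3 of the chilled WT ZT45 group). MSD1 in sig5-3 (0.15, adjusted p = 0.0269) missed the threshold with TMM scaling (0.069), with only the groups compared (0.173), and without replicate 2 (0.12, 0.101) or 3 (0.14, 0.0638) of the chilled ZT27 group or replicate 1 of the chilled ZT45 group (0.11, 0.139).

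**Figure D4:**
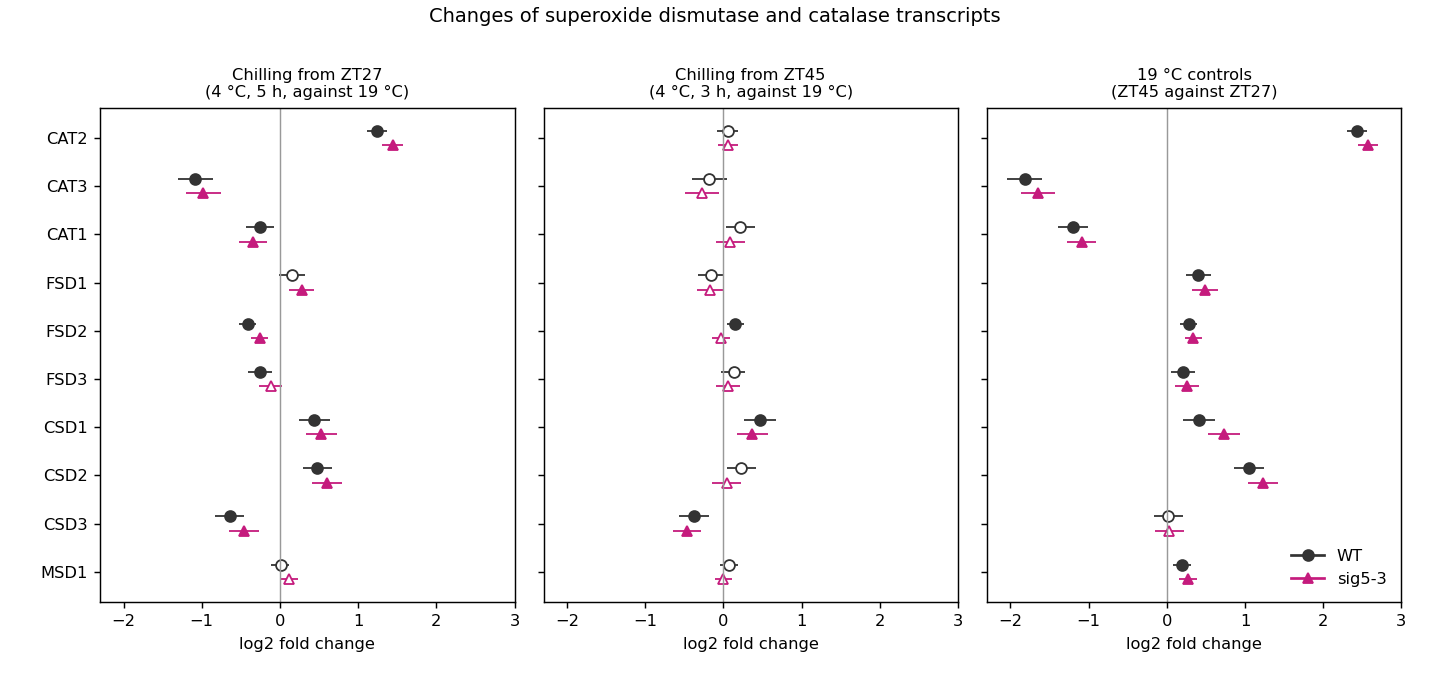
Log2 fold changes (points) with 95% intervals (lines) of the 10 genes for chilling at ZT27, chilling at ZT45 and the ZT45 set against the ZT27 set at 19 °C, in WT (circles) and sig5-3 (triangles). Filled points passed at an adjusted p under 0.05 and open points did not. At ZT27 all but FSD1 and MSD1 have filled points in WT, and all but FSD3 and MSD1 in sig5-3. Between the sets all but CSD3 have filled points, while at ZT45 only CSD1, CSD3 and, in WT, FSD2 do.

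Between the genotypes 1 of the 10 genes passed, in 1 of 4 conditions. At 19 °C none of the 10 passed between sig5-3 and WT in the ZT27 set, where 0.0111% of all genes did, or in the ZT45 set, where 0.039% did. By limma's unadjusted p under 0.05 the counts were 1 and 2 of the 10, beside 5.6% and 9.63% of all genes. The estimates at ZT27 ran from -0.21 for CSD1 (95% interval -0.41 to -0.01, adjusted p = 0.885) to 0.07 for FSD2 (-0.04 to 0.18). In the chilled ZT45 groups none of the 10 passed, where 0.0279% of all genes did, and 0 had an unadjusted p under 0.05, beside 3.23% of all genes. In the chilled ZT27 groups, where 7.44% of all genes passed, FSD2 passed, higher in sig5-3 by 0.22 (SE 0.05, adjusted p = 0.0221), with all 3 mutant libraries (39.8 to 41.08) above all 3 WT libraries (34.08 to 35.68). The genotypes did not overlap there for 4 of the 10 genes, beside 25% of all genes. At an unadjusted p under 0.05 were 3 of the 10 there, beside 26.9% of all genes. All 4 leaf markers also passed upward between these groups (median log2 difference 0.38), with sums of 36100 to 42760 in sig5-3 and 29390 to 31980 in WT, and their part in the FSD2 difference was not tested. The FSD2 difference did not pass with equal library totals (0.06, adjusted p = 0.438), with only the groups compared (0.22, adjusted p = 0.292), or without replicate 1 (0.21, adjusted p = 0.105) or 3 (0.24, adjusted p = 0.0799) of the chilled WT group. With equal library totals CAT1 passed in its place, lower in sig5-3 (-0.25, adjusted p = 0.0302, beside -0.09 and 0.551 as deposited), where 0.869% of all genes passed upward and 17% downward, against 4.58% and 2.86% as deposited. CAT2 passed in addition (0.22, adjusted p = 0.0379, beside 0.17 and 0.0943 over all libraries) without replicate 3 of the chilled sig5-3 group. No difference between the genotypes in the chilling response passed in either set, among the 10 genes or among all genes (0%), and 1 of the 10 was at an unadjusted p under 0.05 in each set, beside 9.93% of all genes at ZT27 and 3.6% at ZT45. Those were CAT2 at ZT27 (0.21, 95% interval 0.02 to 0.4, adjusted p = 0.481) and FSD2 at ZT45 (-0.18, -0.34 to -0.03, adjusted p = 0.999).

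Other genes of hydrogen peroxide turnover were counted beside the 10. With chilling, 56.5% of all genes passed at ZT27 in WT and 35.6% at ZT45, and 60% and 35.3% in sig5-3. Of 17 genes of the ascorbate-glutathione cycle with values (18 listed, APX2 without values), 6 passed upward and 4 downward with chilling at ZT27 in WT and 1 and 2 at ZT45, and the ZT27 median was 0.05. In sig5-3, 7 passed upward and 3 downward at ZT27 and 1 and 4 at ZT45. The glutathione reductase genes GR1 (1.45, SE 0.06, adjusted p = 3.0e-16) and GR2 (0.52, adjusted p = 8.4e-09) and the chloroplast ascorbate peroxidase gene SAPX (0.45, adjusted p = 5.4e-06) rose at ZT27, and the dehydroascorbate reductase gene DHAR2 fell (-0.65, adjusted p = 1.1e-05). Of 14 thiol peroxidase genes, 3 passed upward and 1 downward at ZT27 and 2 each way at ZT45, and in sig5-3 6 upward and 3 downward at ZT27 and 2 and 3 at ZT45. Among them the glutathione peroxidase-like genes GPX7 (1.99, adjusted p = 1.5e-12) and GPX6 (1.64, adjusted p = 2.6e-15) were called at ZT27, where 4.64% of all genes were. GPX5 fell there (-0.46, adjusted p = 2.8e-05). Between the sets at 19 °C in WT, 8 cycle genes passed upward and 1 downward, and 7 thiol peroxidase genes upward and 2 downward, beside 41.4% of all genes.

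All 8 listed genes of enzymes that make hydrogen peroxide or superoxide passed with chilling at ZT27 in WT, 5 upward and 3 downward, beside 56.5% of all genes, and 2 passed at ZT45, both upward, beside 35.6%. In sig5-3, 3 passed upward and 2 downward at ZT27, beside 60% of all genes, and 4 upward and 1 downward at ZT45, beside 35.3%. The NADPH oxidase gene RBOHC rose (0.94, adjusted p = 5.8e-06), the hydroxy-acid oxidase gene HAOX2 fell (-0.86, adjusted p = 1.4e-07), and GOX1, a glycolate oxidase gene of photorespiration, rose by 0.27 (adjusted p = 0.00128). At ZT45 RBOHD, another NADPH oxidase gene, rose by 0.40 (adjusted p = 1.0e-04). Of the 7 genes with values in the copper and miR398 list of 10, 2 passed upward and 2 downward at ZT27 in WT, beside 56.5% of all genes. The copper importer gene COPT1 (1.24, adjusted p = 3.1e-13) and SPL7 (0.22, adjusted p = 0.00294) rose, and the plastocyanin gene PETE1 (-0.87, adjusted p = 5.8e-08) fell together with CCS. At ZT45 2 of the 7 passed upward and 1 downward in each genotype, beside 35.6% of all genes in WT and 35.3% in sig5-3. At ZT27 in sig5-3 4 passed upward and 2 downward, beside 60%.

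Of 5 listed partners of these enzymes 4 had values (MSD2 had none). MTM1, named for a yeast carrier needed to load manganese into the mitochondrial enzyme, rose in WT by 2.51 at ZT27 (SE 0.09, adjusted p = 3.4e-17) and by 1.29 at ZT45 (adjusted p = 5.1e-11), while MSD1 itself, on the values as deposited, did not pass in either. NCA1, needed for catalase activity, was lower by a difference of -0.19 at ZT27 (adjusted p = 0.0037), and LSD1, which binds catalases, was higher by 0.33 (adjusted p = 0.00702). CPN20, the chloroplast co-chaperonin that also activates iron superoxide dismutase, passed in neither set (-0.08 and 0.08).

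The 9 clock genes in the list all rose with chilling at ZT27 in WT, with a median of 2.25, and at ZT45 6 passed upward and 1 downward. In sig5-3 all 9 passed upward at ZT27, and at ZT45 7 upward and 1 downward. Between the sets at 19 °C in WT 2 passed upward and 6 downward, beside 41.4% of all genes. With chilling, 56.5% of all genes passed at ZT27 in WT and 35.6% at ZT45, and 60% and 35.3% in sig5-3. LHY, a morning gene, rose by 3.22 with chilling at ZT27, differed by 0.18 at ZT45 (adjusted p = 0.262) and was 5.25 higher in the ZT45 set at 19 °C, all on the log2 scale. PRR5 rose with chilling in both sets (2.58 and 4.00) and was lower in the ZT45 set (-4.31), and the evening gene TOC1 also rose with chilling (1.18 and 1.15) and was lower in the ZT45 set (-2.20), whereas CAT3 fell with chilling at ZT27. PRR7 rose at ZT27 (0.82) and fell at ZT45 (-1.19). These genes are given beside the catalases as measured, and a part of the clock in the catalase levels was not tested.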

How the data were processed

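RNA was sequenced from 24 seedling samples in 8 groups of 3. A stranded mRNA kit was used for the libraries, per the labels. Per the series' design text and the submitters' processing notes, reads were trimmed in Partek 6.6 and aligned with STAR 2.4.1d to a genome that text calls TAIR11. No source used here gives the assignment of reads to genes, the filter or the scaling. As deposited, the values are a signal: a read abundance per gene, taken here as normalised per library. They are not raw counts: library totals ran from 790711 to 1092052, and 88.8% to 91.4% of values under 30 were whole multiples (within 0.05 steps) of a step per library. Taken as 1 read, that step gave 21274987 to 36440723 reads per library on genes with values. The other values were not whole reads, so no count test was run. The 19384 genes without values were not tested.

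Values were tested as log2(value + 0.5) with limma 3.58.1 in R 4.3.3 (trend and robust empirical Bayes), 1 mean per group, all 24 libraries, 16 comparisons, and Benjamini-Hochberg adjustment over 17952 genes within each comparison. The added 0.5 understates changes of low genes. The fit was also run on simulated data, independent normal values with changes set in some genes of a single group. That run cannot show how the fit behaves where a library stands apart or the scaling matters. Lengths and sequences come from RefSeq's TAIR10.1 assembly, matched by gene identifier.

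The members and gene lists were chosen with earlier results of these data known. All 10 members are named. Up to 4 genes of each other list are named, those with the smallest adjusted p for chilling in WT and those that passed against the rest. COX5B-1 (as a target of miR398), genes without values and the marker genes are named beyond that rule. Also named are the 3 genes most like each catalase, CSD1 and CSD2. Alternatives were other scalings (equal totals, TMM, median ratio), pseudocounts of 0.1 and 2, a minimum mean of 10, plain empirical Bayes, only the groups compared, a replicate block, and each library left out in turn. Replicate numbers did not pair the samples: deviations from group means of same-numbered libraries had a median correlation of -0.029, and 4 of 36 pairs were over 0.1. The labels call replicates independent, without saying how, so p-values measure the spread between these pools.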

Additional observations from a re-analysis of the deposited data

Results flagged for a closer look

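For 6 of the 10 genes in each genotype, limma's test of the difference itself found that the chilling response differed between the time sets (ZT45 response minus ZT27 response, log2 scale), beside 26.3% of all genes in WT and 29.3% in sig5-3. In WT these were CAT2 (-1.18, adjusted p = 4.8e-10), CAT3 (0.90, adjusted p = 7.1e-05), CAT1 (0.47, adjusted p = 0.00762), FSD2 (0.56, adjusted p = 4.0e-06), FSD3 (0.38, adjusted p = 0.0081) and FSD1 (-0.32, adjusted p = 0.0398). In sig5-3 they were CAT2 (-1.39, adjusted p = 2.3e-11), CAT3 (0.71, adjusted p = 7.9e-04), CSD2 (-0.57, adjusted p = 0.00161), FSD1 (-0.45, adjusted p = 0.00367), CAT1 (0.44, adjusted p = 0.0114) and FSD2 (0.22, adjusted p = 0.0289). The sets also differ in the length of chilling, which cannot be told apart from its start.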

How the results depend on the processing

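The numbers of members that passed in the 16 comparisons stayed within 1.5 times under the other scalings, pseudocounts, filter, plain empirical Bayes and the replicate block, but which members passed did not stay the same. Between the genotypes in the chilled ZT27 groups equal library totals left 1 member, CAT1 lower in sig5-3 (-0.25, adjusted p = 0.0302), in place of FSD2. With only the groups compared, 7 members passed for chilling at ZT45 in WT, 4 in sig5-3, and 0 between the genotypes in the chilled ZT27 groups. Leaving out 1 library gave 2 to 6 and 2 to 4 members at ZT45, 0 to 2 for that genotype comparison, 7 to 9 and 8 to 9 for chilling at ZT27 in WT and sig5-3, and 5 to 7 and 5 to 6 for the difference between the sets. The replicate block, whose numbers did not pair the samples, moved 1 single call, CAT3 for chilling at ZT45 in sig5-3 (-0.27, adjusted p = 0.0409). Making library totals equal shifted the median of all genes, by -0.14 and -0.25 for chilling at ZT27 in WT and sig5-3 and by 0.27 for the difference between the sets in sig5-3. With that scaling 9 results of single members gained a call in the direction they had as deposited, 3 gained one with the sign turned, and 8 lost one. Signs that turned were of members that had not passed as deposited, and the 3 turned values that passed were of MSD1 (-0.14, -0.15 and 0.17). With equal totals MSD1 was at -0.14 and -0.15 for chilling at ZT27 in WT and sig5-3 and 0.03 at ZT45 in sig5-3, CSD3 at -0.08 and -0.11 between the 19 °C sets in WT and sig5-3, and CSD1, CSD3 and MSD1 at 0.12, 0.27 and 0.17 for the difference between the sets in sig5-3. With TMM, MSD1 was at 0 for chilling at ZT45 in sig5-3 and for the difference between the sets in WT, and CSD1 at -0.04 for the latter, while median-ratio scaling gave 0.02 for that MSD1 chilling value and -0.01 for CSD1. With 1 library left out, the values that turned sign ranged from -0.04 to 0.15 (CSD1, difference between the sets, WT), -0.08 to 0.06 (CSD3, the same, sig5-3), -0.04 to 0.1 (CSD2) and -0.07 to 0.02 (FSD2) and -0.04 to 0.03 (MSD1) for chilling at ZT45 in sig5-3, -0.01 to 0.03 (MSD1, chilling at ZT27, WT), -0.04 to 0.08 and -0.03 to 0.11 (CSD3 between the 19 °C sets, WT and sig5-3), and -0.02 to 0.07 (CSD3) and -0.03 to 0.17 (FSD1) between the chilled sets in sig5-3. The sign turns above are of the chilling and time-set comparisons. Signs also turned among the genotype comparisons, which are not listed in full. Without the library that stood apart, the genotype difference in the chilled ZT27 groups went from 0.06 to -0.06 for FSD1 and from 0.06 to -0.09 for CAT3. The genotype difference in the ZT27 chilling response went from 0.12 to -0.01 and from 0.1 to -0.06. None of these passed with or without that library. The cause of these moves was not tested. CSD3, with the fewest reads, had at least an estimated 261 per library.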
